A study of Mus musculus with 29 samples.

Results

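The 7 genes described here encode secreted proteins of mouse milk or of the mammary gland, and their RNA was measured in subcutaneous white fat. They are Csn1s1, Csn1s2a, Csn2 and Csn3, which encode caseins, Wap and Lalba, which encode whey proteins, and Wfdc18, which encodes a small protein of the whey acidic protein family. They are 7 of the 17536 genes listed in both deposited tables. The genes were selected on measured values, since several of them led the genes with lower levels after the drug in wild-type females. Every comparison that uses wild-type females is therefore given as a description with no test. Tests compare only the other groups, but wild-type females stay in the shared fit that supplies the spread and the adjustment for the table.

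Frozen mouse subcutaneous fat was the source of the RNA, which was sequenced on a DNA nanoball instrument. Mice carried a knockout (KO) of Ncoa1, a nuclear receptor coactivator gene, or were wild type (WT), and were female or male. For 7 days they received intraperitoneal injections of CL316,243 (CL), which activates the β3-adrenergic receptor, at 0.5 mg/kg, or saline (NaCl). The 29 columns of values carry 27 names: 3 Female KO CL, 3 Female KO NaCl, 4 Female WT CL, 2 Female WT NaCl, 4 Male KO CL, 3 Male KO NaCl, 4 Male WT CL and 4 Male WT NaCl mice. The sources used here do not give the strain, the age, the reproductive state of the females or the way the knockout was made. Nothing says whether mice of a group were littermates or handled together. The p-values therefore measure the spread between these samples within groups, pooled over all 8 groups.

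The values are FPKM, which count fragments per length of transcript and per size of library, in a first table of 24 columns and a second table of 5 columns. The sample labels do not say how the making of these tables differed. The second table holds Female WT NaCl replicates 1 and 3, Female KO NaCl replicate 1 and Male KO NaCl replicates 2 and 3. The names Female WT NaCl replicate 3 and Male KO NaCl replicate 3 occur in both tables. Their columns are given separately below, because the 2 columns of the female differ widely in these genes. Ncoa1 lay between 1.47 and 2.9 FPKM in the KO columns, against 4.93 to 9.16 FPKM in the WT columns. The summed FPKM of 4 Y-linked genes was at most 0.07 in the columns labelled female and 40.42 to 61.39 in those labelled male. Libraries summed to between 563255 and 707161 FPKM, and read depth is unknown. Female KO NaCl replicate 2 stood apart in skeletal muscle markers, which summed to 57590 FPKM there and to at most 3594 FPKM in any male column.

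Caseins bind calcium and form the micelles that carry calcium and phosphate in milk, and the whey proteins stay dissolved around them. Luminal cells of the mammary gland make both classes, under prolactin acting through the transcription factor STAT5 and under glucocorticoid, mostly late in pregnancy and in lactation. In female mice the mammary ducts grow within the subcutaneous fat pads, so RNA of such a pad can include epithelial RNA. In bulk tissue, fewer cells of a type and less RNA per cell cannot be told apart.

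On GRCm38.p6, by the RefSeq annotation, the casein genes form a cluster on chromosome 5. Csn1s1 lies at chr5:87666208-87682578 on the plus strand and Csn2 at chr5:87692619-87699429 on the minus strand. Csn1s2a lies at chr5:87774450-87788798 and Csn3 at chr5:87925579-87932550, both on the plus strand. With Csn1s2b between them, the 5 genes span 266343 bases. The whey genes lie elsewhere: Wap at chr11:6635483-6638654 on the minus strand, Lalba at chr15:98480400-98482934 on the minus strand and Wfdc18 at chr11:83709004-83711360 on the plus strand.

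The promoters of 5 members are shown because the first 4 genes were high in the same columns, while Wfdc18 had another pattern. Those columns are the second-table ones of WT saline females, and nearly all others were at or near the floor. Lalba shared the pattern of the first 4, and its promoter, not printed here, held no match to the palindrome below. Each runs from 250 bases before to 50 after the RefSeq start site on the coding strand of GRCm38.p6. Capitals mark every match to TTCNNNGAA, the palindrome that STAT5 factors bind, searched on both strands.
Csn1s1: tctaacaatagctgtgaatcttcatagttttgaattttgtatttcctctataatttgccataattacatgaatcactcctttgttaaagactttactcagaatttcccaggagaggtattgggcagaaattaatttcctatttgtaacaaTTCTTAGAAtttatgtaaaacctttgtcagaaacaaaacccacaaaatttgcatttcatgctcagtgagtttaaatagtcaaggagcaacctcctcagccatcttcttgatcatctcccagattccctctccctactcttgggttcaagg
Csn2: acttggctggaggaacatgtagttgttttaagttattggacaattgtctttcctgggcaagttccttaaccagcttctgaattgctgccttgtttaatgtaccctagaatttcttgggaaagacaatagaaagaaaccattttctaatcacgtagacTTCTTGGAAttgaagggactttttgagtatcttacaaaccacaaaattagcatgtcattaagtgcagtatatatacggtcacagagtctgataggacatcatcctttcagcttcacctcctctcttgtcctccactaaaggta
Csn1s2a: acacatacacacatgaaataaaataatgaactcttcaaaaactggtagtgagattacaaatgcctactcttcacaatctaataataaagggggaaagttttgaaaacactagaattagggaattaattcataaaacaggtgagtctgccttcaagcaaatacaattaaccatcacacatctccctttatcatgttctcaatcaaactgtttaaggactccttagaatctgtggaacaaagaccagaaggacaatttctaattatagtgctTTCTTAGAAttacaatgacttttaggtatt
Wap: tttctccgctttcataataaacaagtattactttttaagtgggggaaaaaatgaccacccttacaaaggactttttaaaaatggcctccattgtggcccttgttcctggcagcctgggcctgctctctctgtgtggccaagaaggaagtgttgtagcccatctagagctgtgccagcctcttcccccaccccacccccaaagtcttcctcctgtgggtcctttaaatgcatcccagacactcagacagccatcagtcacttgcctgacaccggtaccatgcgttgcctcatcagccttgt
Wfdc18: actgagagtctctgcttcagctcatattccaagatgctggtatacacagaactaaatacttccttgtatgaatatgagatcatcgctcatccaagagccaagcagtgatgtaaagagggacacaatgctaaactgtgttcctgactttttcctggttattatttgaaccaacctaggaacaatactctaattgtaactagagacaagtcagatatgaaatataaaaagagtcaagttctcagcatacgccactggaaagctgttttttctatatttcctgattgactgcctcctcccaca

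The 6 member promoters in the RefSeq table held this palindrome in 3 cases, against 2726 of 32851 promoters (8.3%) of the same length. In Csn1s1 the match runs from base -100 to -92 and in Csn2 from -93 to -85, counted from the start site. In Csn1s2a it lies after the start, from base 21 to 29. The octamer ATTTGCAT, a site of POU factors, was found in Csn1s1 from base -54 to -47 and in 570 of all promoters (1.74%). The core TTGCNNAA of C/EBP sites, held by 3547 promoters (10.8%), matched in 0 of the 6. These matches describe letters in a window and do not show binding.

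The members fell into 2 patterns over the 29 columns. Wap, Csn2, Csn1s2a, Csn1s1 and Lalba were at or near 0 FPKM in nearly every column of either sex and high in 2 second-table columns of WT saline females. Csn3 and Wfdc18 were present in all 13 female columns, at 11.79 FPKM or more, and near 0 in all 16 male columns, where the highest values were 3.07 FPKM for Csn3 and 0.78 FPKM for Wfdc18. The plot of every column by group shows both patterns.

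**Figure D1:**
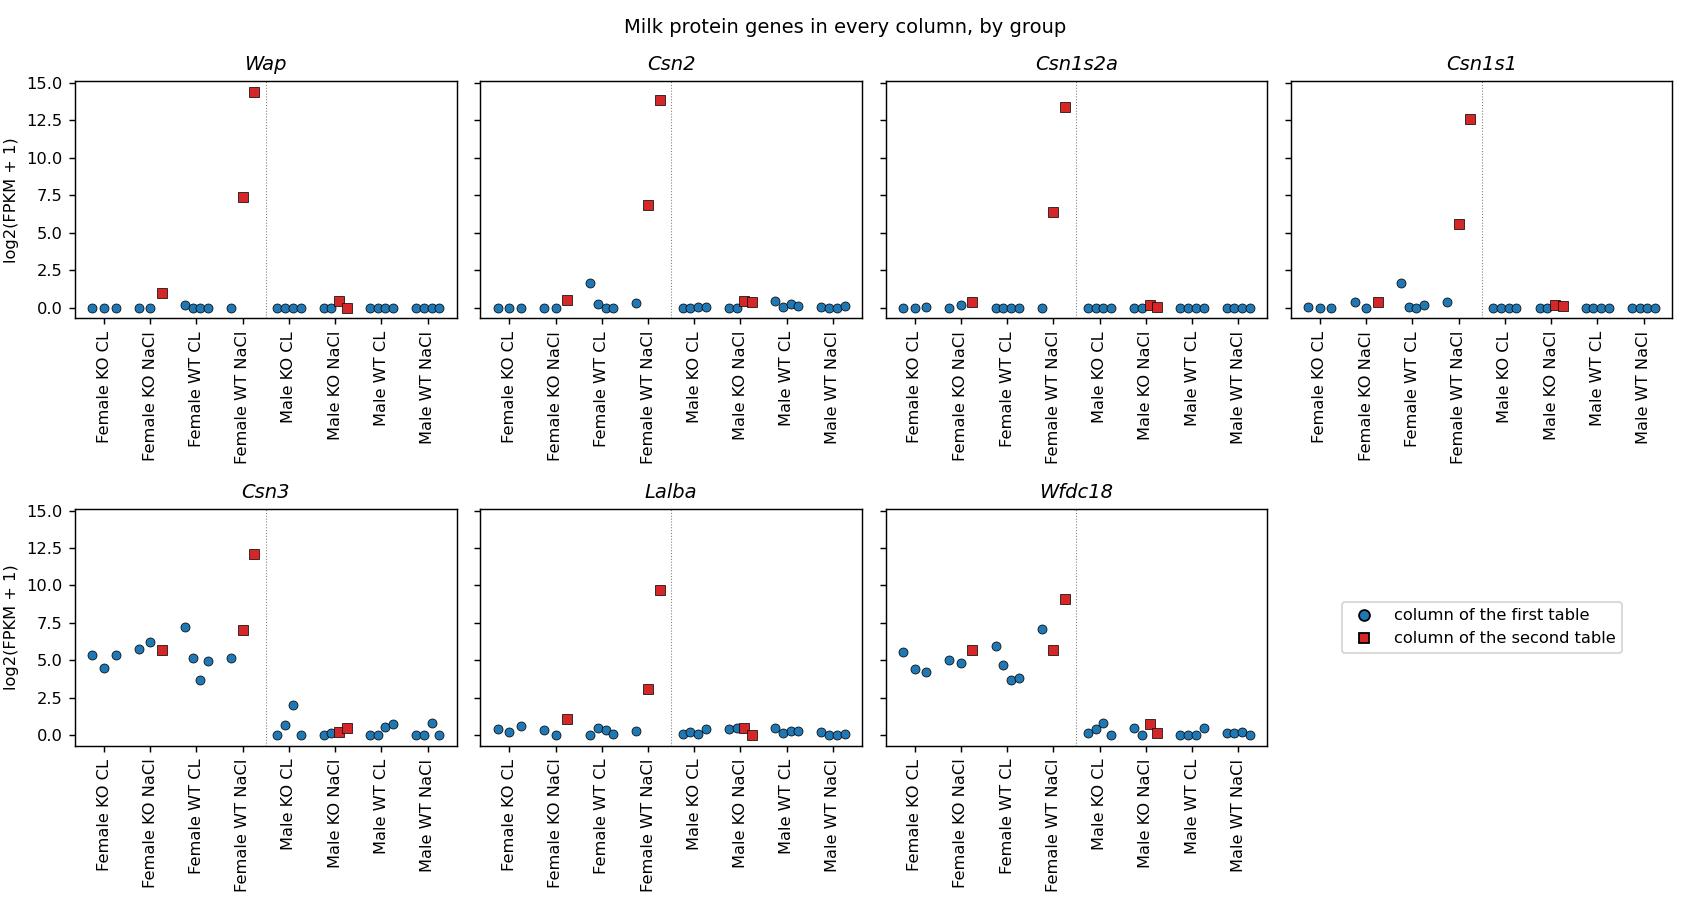
Levels of the 7 milk protein genes as log2(FPKM + 1) in all 29 columns, by group, with female groups left of the dotted line; circles are first-table columns and squares second-table columns. Csn3 and Wfdc18 separate female from male columns, and the other 5 genes are high in 2 second-table columns of Female WT NaCl alone.

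The 2 columns named Female WT NaCl replicate 3 held very different amounts of milk protein RNA. Wap, the major whey protein of mouse milk, stood at 21614.71 FPKM in the second-table column and was listed at 0 in the first-table column. Csn2, β-casein, stood at 14859.87 FPKM in the second-table column and 0.25 FPKM in the first. Csn1s2a, an α-S2-like casein, stood at 10482.9 FPKM in the second-table column and was listed at 0 in the first. These genes thus ranked 2, 3 and 4 among 17536 genes in the second-table column, after Fabp4, the fatty acid binding protein of adipocytes, at 21666.38 FPKM.

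Csn1s1, α-S1-casein, stood at 6255.39 FPKM in the second-table column and 0.31 FPKM in the first. Lalba, α-lactalbumin, which turns a galactosyltransferase into lactose synthase, stood at 835.57 FPKM in the second-table column and 0.21 FPKM in the first. Csn3, κ-casein, which coats and stabilises the casein micelle, stood at 4423.17 FPKM in the second-table column and 34.4 FPKM in the first, 128.6 times as much. Wfdc18 differed least, with 542.76 FPKM in the second-table column and 134.89 FPKM in the first, a ratio of 4.02. Together the 7 genes made up 9.25% of the summed FPKM of the second-table column and 0.0285% of the first. The other name that occurs in both tables, Male KO NaCl replicate 3, had no member above 0.4 FPKM in either column.

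Across all genes the columns of replicate 3 lay within the range of other pairs of columns of a group. Their log2(FPKM + 1) values correlated at r = 0.958 across 13229 genes, which are not independent replicates, and 86 genes lay 2 or more apart on that scale, 38 higher and 48 lower in the second-table column. The 2 columns of Male KO NaCl replicate 3 correlated at r = 0.975 with 39 such genes. The other 37 pairs of columns within a group ranged from r = 0.846 to 0.995 with 1 to 565 such genes. Both the lowest r and the 565 genes belong to a pair with Female KO NaCl replicate 2, which stood apart in muscle markers. Female WT NaCl replicate 1 correlated at r = 0.966 with the first-table column of replicate 3, with 147 such genes. With the second-table column it was 0.973 and 77. Both r exceed 0.958. The sample records without a column belong to Female WT NaCl and Male KO NaCl, the groups with a repeated name. Whether the 2 columns come from the same animal cannot be told from the names.

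Female WT NaCl replicate 1, the other second-table column of that group, held the same genes at a lower level. Its values were 166.4 FPKM for Wap, 113.8 for Csn2, 81.76 for Csn1s2a, 46.1 for Csn1s1 and 7.45 for Lalba. Beyond this column and the second-table column of replicate 3, the highest female value of any of these 5 genes was 2.18 FPKM, of Csn1s1. Relative to the second-table column of replicate 3, replicate 1 held 0.737% as much Csn1s1, 0.766% as much Csn2, 0.77% as much Wap, 0.78% as much Csn1s2a and 0.892% as much Lalba. The share was thus nearly the same for all 5 genes, although their own levels in replicate 3 ranged from 835.57 to 21614.71 FPKM.

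Csn3 and Wfdc18 did not share that ratio. Replicate 1 held 127.26 FPKM of Csn3, 2.88% of the second-table column of replicate 3, and 49.95 FPKM of Wfdc18, 9.2% of it. Both values lay within the range of the 11 female columns outside these 2, which was 12.1 to 146.5 FPKM for Csn3 and 11.79 to 134.89 FPKM for Wfdc18. Of the 16 other milk proteins, 6 stood under 1% of that column, 2 between 1% and 10% and 8 at 10% or more. Csn1s2b, an α-S2-like casein of the same cluster, stood at 0.872%, Spp1, osteopontin, at 0.932%, Cel, the bile salt-stimulated lipase of milk, at 0.957% and Lao1, an L-amino acid oxidase of milk, at 0.972%. Glycam1, a mucin-like milk protein, stood at 0.877%, with 63.64 FPKM in replicate 1 and 7259.99 FPKM in the second-table column of replicate 3. Lpo, lactoperoxidase, stood at 0.254%, from 0.01 FPKM in replicate 1, and Pigr, the receptor that carries immunoglobulin into milk, at 1.12%. Folr1 stood at 5.48%, Muc1 at 15.1%, Ltf at 15.4%, Lcn2 at 21.6%, Muc15 at 24.2% and Pthlh at 34.1%. Trf, transferrin, stood at 39.9%, Mfge8, the milk fat globule protein, at 58.8%, and Saa3 at 294%. The list thus spread widely, and a minority of it stood near the ratio that 5 members shared. Levels in other females differed along the list. Among first-table females the highest values were 0.06 FPKM for Csn1s2b, 0.37 for Cel, 0.36 for Lao1 and 3.31 for Spp1. Glycam1 went the other way, at up to 1646.02 FPKM there. Each of the 8 genes at 10% or more reached 2.03 FPKM or more there. How far these levels account for the spread was not tested. Transfer of material or reads between these second-table libraries was not tested.

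**Figure D2:**
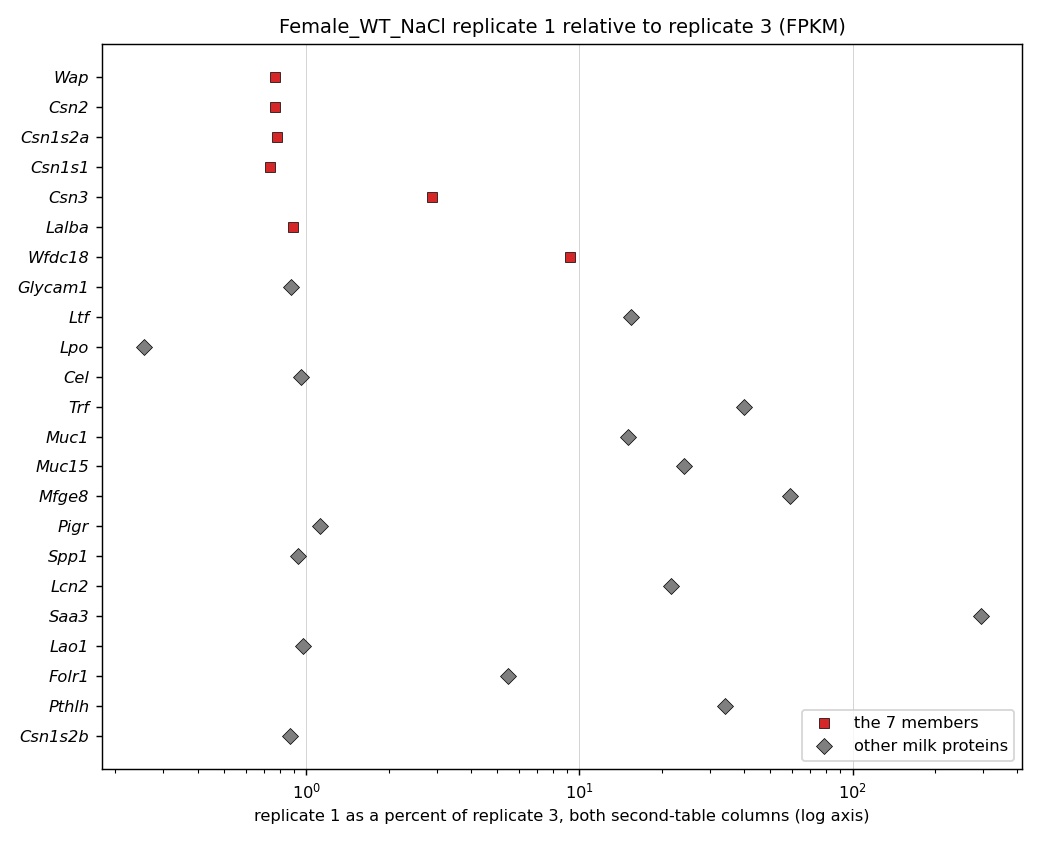
FPKM of Female WT NaCl replicate 1 as a percent of the second-table column of replicate 3, on a log axis, for the 7 members and 16 other milk proteins. The members Wap, Csn2, Csn1s2a, Csn1s1 and Lalba lie between 0.737% and 0.892%, while Csn3 stands at 2.88% and Wfdc18 at 9.2%.

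The remaining second-table columns held traces of these genes. Female KO NaCl replicate 1 had 0.97 FPKM of Wap, 0.39 of Csn2, 0.31 of Csn1s2a, 0.27 of Csn1s1 and 1.15 of Lalba. Male KO NaCl replicate 2 had 0.36 FPKM of Wap, 0.35 of Csn2, 0.14 of Csn1s2a, 0.15 of Csn1s1 and 0.39 of Lalba. The second-table column of Male KO NaCl replicate 3 had 0.3 FPKM of Csn2, 0.06 of Csn1s1 and 0.04 of Csn1s2a, with Wap and Lalba listed at 0. Csn1s1, Csn1s2a and Wap were listed at 0 in all 14 first-table male columns, but Csn2 reached 0.35 FPKM and Lalba 0.41 FPKM there, as high as in the second-table males. In the 10 first-table female columns Wap was at 0 in 9, with 0.14 FPKM in Female WT CL replicate 1 as the exception.

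Other milk genes followed the second-table column of replicate 3. Of 16 further milk proteins, 15 had their highest female value there, against 382 of 13758 genes (2.78%) that reached 1 FPKM in a female column. The exception was Saa3, an acute-phase serum amyloid protein. Their sum was 12950 FPKM in that column and 1092 to 2743 FPKM in the other female columns. Genes of milk fat and lactose synthesis had their highest value there in 5 of 13 cases, and genes of prolactin signalling and lactation control in 3 of 16.

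**Figure D3:**
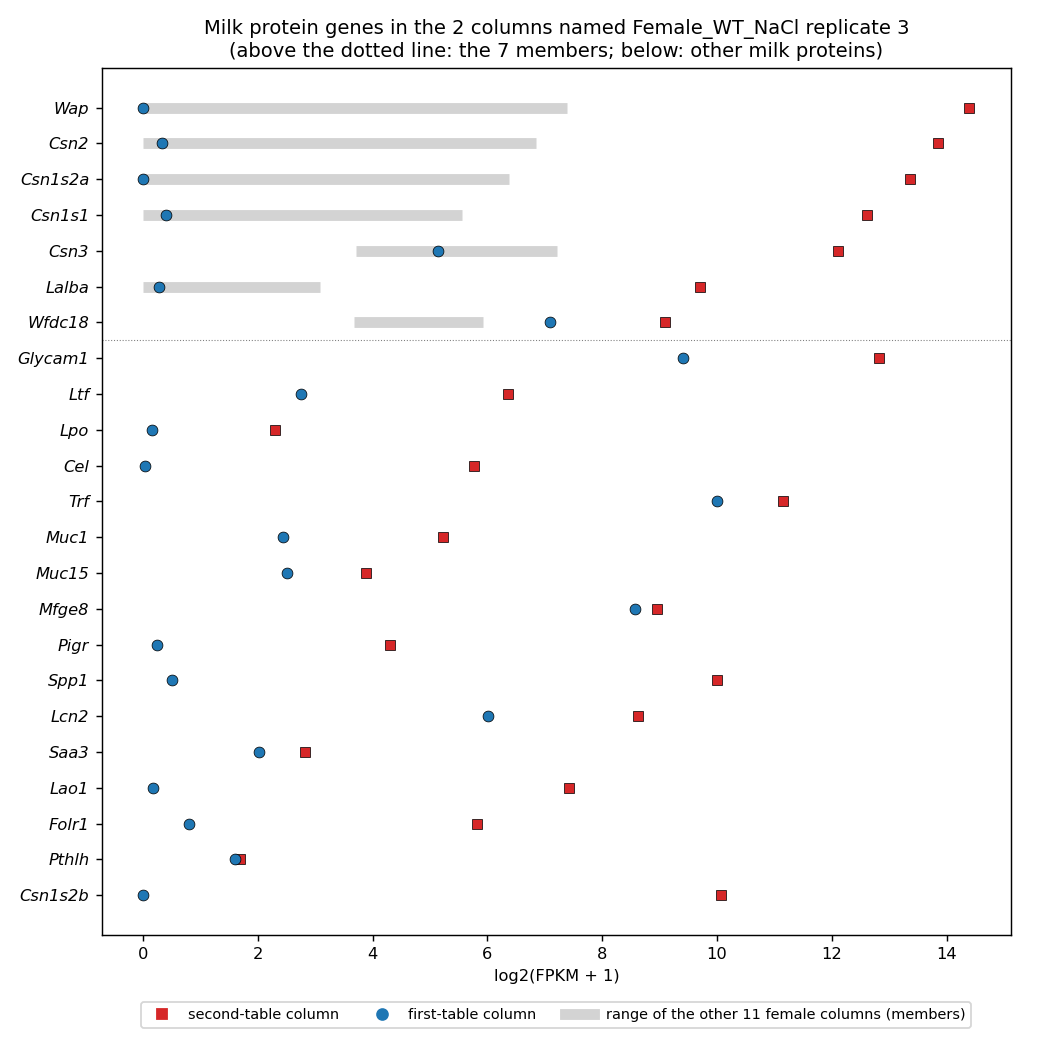
Levels as log2(FPKM + 1) of the 7 members, above the dotted line, and 16 other milk proteins, below it, in the second-table column (squares) and the first-table column (circles) named Female WT NaCl replicate 3; grey bars give the range of the members in the other 11 female columns. Every member lies above the grey bar in the second-table column, and Wfdc18 does so in the first-table column as well.

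Most epithelial markers in that column lay within the range of the other females, 12 of 16 luminal and 7 of 8 basal and myoepithelial ones, with exceptions in both directions. Krt18, a keratin of luminal epithelium, stood at 163.26 FPKM, close to the median of 161.3 FPKM over the other 12 female columns, which ranged from 83.47 to 418.47 FPKM. The 16 luminal markers summed to 571.1 FPKM there, against 340.1 to 1829 FPKM in the other female columns and 1.96 to 9.11 FPKM in male columns. Elf5, a luminal marker and a transcription factor of milk-producing alveolar cells, went the other way, at 34.11 FPKM there and 0.47 to 10.58 FPKM in the other female columns. The luminal markers Krt7, Prlr and Foxa1 lay below all other females, at 20.64, 6.25 and 3.78 FPKM, against lowest values of 24.96, 6.47 and 4.51 FPKM. Cnn1, a smooth muscle protein of myoepithelial cells, lay above them, at 8.43 FPKM, against at most 7.26 FPKM. The 8 basal and myoepithelial markers summed to 111.2 FPKM there, 41.57 to 167.1 FPKM in the other females and 15.59 to 117.6 FPKM in males. Adipocyte markers summed to 24950 FPKM there and 14540 to 46840 FPKM in the other females. The ratio of Csn3 to Krt18 was 27.1 in that column and 0.0974 to 0.793 in the other female columns, and the ratio of Csn2 to Krt18 was 91 there and 0 to 0.71 elsewhere.

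**Figure D4:**
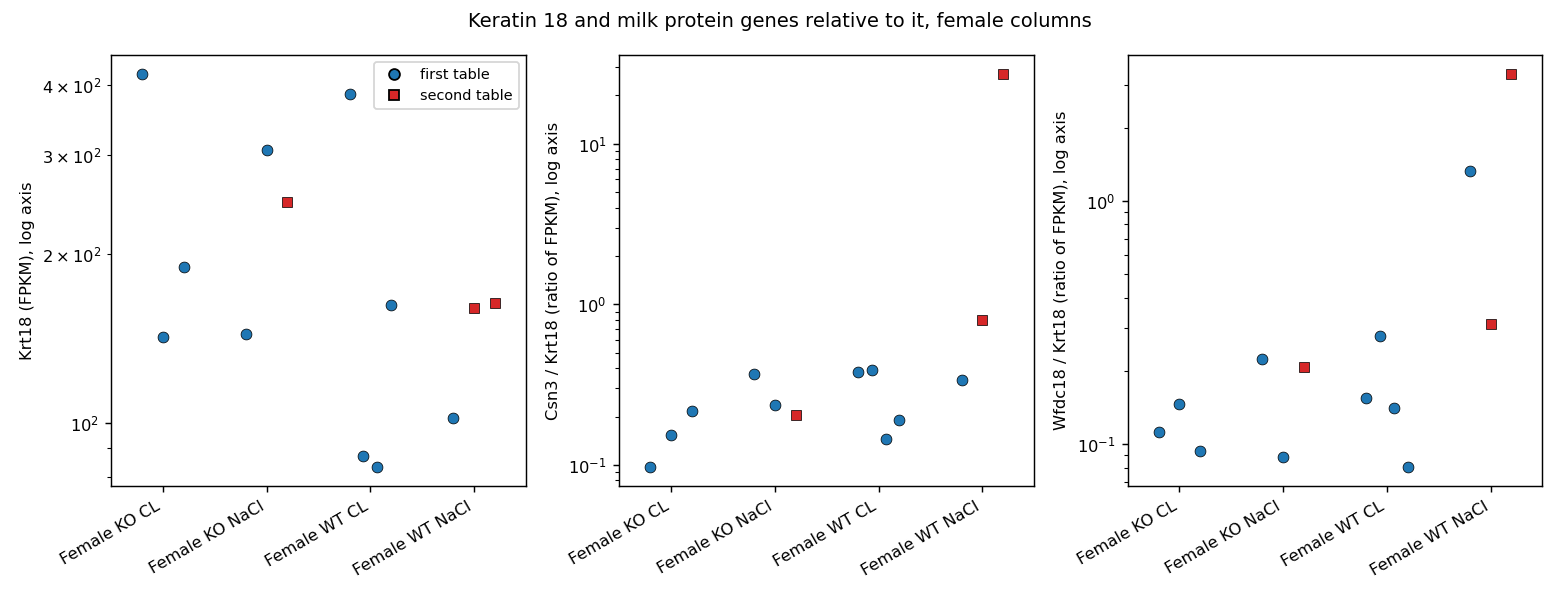
Krt18 in FPKM and the ratios of Csn3 and Wfdc18 to Krt18 in the 13 female columns, by group, on log axes; circles are first-table and squares second-table columns. Krt18 of the second-table column of Female WT NaCl replicate 3 lies within the other columns, while its Csn3 ratio of 27.1 and Wfdc18 ratio of 3.32 lie above all of them.

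The comparison of CL with saline in WT females, which chose the genes, rests largely on those 2 columns. Female WT CL mice had 2.09, 0.19, 0 and 0 FPKM of Csn2, against 113.8 FPKM in Female WT NaCl replicate 1 and 14859.87 and 0.25 FPKM in the columns of replicate 3. Wap was at 0.14, 0, 0 and 0 FPKM in the CL mice, against 166.4, 21614.71 and 0 FPKM in these saline columns. With the columns of replicate 3 averaged on the log2 scale, the fitted differences in log2(FPKM + 1), CL minus saline, were -6.71 for Wap, -6.40 for Csn1s2a, -6.22 for Csn2, -5.58 for Csn1s1, -3.69 for Lalba, -2.84 for Csn3 and -2.33 for Wfdc18. The median of the 7 was -5.58 and that of all genes tested -0.04. With the first-table column alone for replicate 3 the median of the 7 was -1.82, and with the second-table column alone it was -8.47. Within the first table, where the saline group is 1 column, it was 0.05, although Wfdc18 still differed there by -2.57.

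For Csn3 the groups overlapped. Female WT CL mice had 146.5, 34.08, 12.1 and 30.71 FPKM, against 127.26 FPKM in replicate 1 and 4423.17 and 34.4 FPKM in the columns of replicate 3 of Female WT NaCl. Csn3 was thus as high in 1 CL mouse as in replicate 1, and 2 other CL mice lay close to the first-table column. Female WT CL replicate 1 also had the highest luminal marker sum, 1829 FPKM, against 340.1 to 597 FPKM in the other 3 mice of its group. Wfdc18 stood at 59.86, 24.29, 11.79 and 13.09 FPKM in the CL mice, against 49.95, 542.76 and 134.89 FPKM in the saline columns.

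The other comparisons with WT saline females used the same columns. Between Female KO NaCl and Female WT NaCl the fitted differences ran from -6.67 for Wap to -1.67 for Wfdc18, with a median of -5.80 for the 7 genes and 0.08 for all genes tested. Between Female WT NaCl and Male WT NaCl they ran from 3.85 for Lalba to 7.90 for Csn3, with a median of 6.65 for the members and -0.08 for all genes. Within the first table these medians were -0.11 and 0.28. They hide Csn3 and Wfdc18, which differed there between Female WT NaCl and Male WT NaCl by 4.95 and 6.96, with 34.4 and 134.89 FPKM in the 1 female column and at most 0.73 and 0.18 FPKM in the 4 males. Between Female KO NaCl and Female WT NaCl they differed there by 0.83 and -2.16. Between Female KO CL and Female WT CL, which use first-table columns alone, the differences ran from -0.47 for Csn2 to 0.23 for Wfdc18. Between Female WT CL and Male WT CL, again first-table columns, Csn3 differed by 4.94 and Wfdc18 by 4.39, with at most 0.66 FPKM of Csn3 and 0.43 FPKM of Wfdc18 in the males, and the other 5 genes differed by 0.47 or less.

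Csn3 kept one order of levels throughout, all female groups above all male groups. By group means it stood at 34.5 ± 10.9 FPKM in Female KO CL, 58.7 ± 12.2 in Female KO NaCl and 55.9 ± 61.2 in Female WT CL. The male means were 0.915 ± 1.46 FPKM in Male KO CL, 0.138 ± 0.129 in Male KO NaCl, 0.283 ± 0.335 in Male WT CL and 0.183 ± 0.365 in Male WT NaCl (SD over mice, 3 in the KO female and Male KO NaCl groups, 4 in the rest). Wfdc18 averaged 28.4 ± 15.9 FPKM in Female KO CL, 36.8 ± 12.8 in Female KO NaCl and 27.3 ± 22.5 in Female WT CL, and between 0.09 and 0.362 FPKM in the male groups. Neighbouring female groups overlapped in both genes except for Csn3 between CL and saline knockouts, a difference that did not pass the test given below. The male groups overlapped each other.

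Tests were possible within knockouts and among males. Of the shared genes, the 13174 that reached 1 FPKM in 3 or more mice were tested with limma on log2(FPKM + 1) and Benjamini-Hochberg adjustment over all of them at a threshold of 0.05. Csn1s2a and Wap did not pass this filter and 5 members did. Csn1s1 and Csn2 passed it only through wild-type females, the mice whose values chose the members. Lalba passed it through these and Female KO NaCl replicate 1. The female levels of Csn3 and Wfdc18 alone brought them past it. The filter itself thus favours genes that differ between the sexes. The choice of the members, which needed expression in wild-type females, favours genes present in females as well. These limits hold for the sex tests of Csn3 and Wfdc18 below.

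Csn3 and Wfdc18 were higher in female than in male knockouts, in saline and in CL mice alike. Under saline, females had 50.78, 52.57 and 72.69 FPKM of Csn3, against 0, 0.16 and, for the 2 columns of replicate 3, 0.11 and 0.4 FPKM in males. The groups did not overlap, and the difference was 5.64 ± 0.62 in log2(FPKM + 1) (SE, 3 females and 3 males, limma adjusted p = 4.38e-06). Wfdc18 stood at 51.27, 32 and 27.12 FPKM in the females, against 0.38, 0.66 and, for replicate 3, 0 and 0.09 FPKM in the males. It too was higher in 3 of 3 females, by 4.78 ± 0.53 (limma adjusted p = 4.53e-06). Within first-table columns alone these differences were 5.9 for Csn3 and 4.7 for Wfdc18, and without each mouse in turn, Female KO NaCl replicate 2 included, they were 5.33 to 5.77 and 4.13 to 4.96. Of all 13174 genes, 7.77% passed the test in this comparison.

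Under CL, female knockouts had 40.77, 21.87 and 40.87 FPKM of Csn3, against 0, 0.59, 3.07 and 0 FPKM in males. The difference was 4.42 ± 0.58 (SE, 3 females and 4 males, limma adjusted p = 4.24e-05), with no overlap. Wfdc18 stood at 46.7, 20.69 and 17.84 FPKM in the females, against 0.11, 0.32, 0.78 and 0 FPKM in the males, a difference of 4.40 ± 0.49 (limma adjusted p = 5.28e-06). In this comparison 11% of all genes passed. The 1 male with 3.07 FPKM of Csn3 also had the highest Wfdc18 of the males and, at 9.11 FPKM, the highest luminal marker sum of them.

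Csn1s1, Csn2 and Lalba did not pass in either sex comparison, with differences from -0.04 to 0.21. Lalba stood at 1.15, 0.25 and 0 FPKM in saline females and 0.35, 0.14 and 0.54 FPKM in CL females, and at 0.39 FPKM or less in every male knockout column. The limits of these tests are the low values, since a pseudocount of 1 compresses differences below about 1 FPKM. Fitted without the filter, Wap passed under saline with a difference of 0.30 (limma adjusted p = 0.024). This rests on 0.97 FPKM in 1 second-table female column, with 0 in the other 2 females. Among saline male knockouts, 1 second-table column held 0.36 FPKM and the rest 0. The fitted value also rests on the adjustment for the table of each column.

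Luminal epithelial markers separated the same groups. All 16 were higher in female than in male knockouts under saline and under CL, with median differences of 3.21 and 3.51, against medians of 0.10 and 0.09 over all genes. Krt18 averaged 233 ± 82.4 FPKM in saline females and 0.137 ± 0.131 FPKM in saline males (SD, n = 3 each), a difference of 7.64 ± 0.44 (limma adjusted p = 1.87e-10). Basal markers were higher in 6 of 8 cases under saline and 4 of 8 under CL. Of all genes, 7.77% and 11% passed in these comparisons. Adipocyte markers were lower in female knockouts in 4 of 6 cases under saline (Cidec, Fabp4, Lipe and Adipoq, list median -0.76) and in 1 of 6 under CL (Cidec, list median -0.52). Without Female KO NaCl replicate 2, which stood apart in muscle markers, Cidec alone of the 6 passed under saline, while all 16 luminal markers still did. How far the differences in Csn3 and Wfdc18 follow the amount of epithelium or fat was not tested.

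Genes of prolactin signalling and lactation control included 3 of 16 higher in saline female knockouts, where 7.77% of all genes passed. Prlr, the prolactin receptor, averaged 21.7 ± 7.51 FPKM in females and 1.3 ± 0.345 FPKM in males, a difference of 3.36 ± 0.33. Gata3, a luminal transcription factor, averaged 18.4 ± 6.8 FPKM in females and 0.325 ± 0.0823 FPKM in males. Elf5, a transcription factor of milk-producing alveolar cells, averaged 3.74 ± 0.717 FPKM in females and was listed at 0 in the saline male knockouts. Under CL the same 3 genes passed, together with Socs2, a feedback inhibitor of the pathway, and the kinase gene Akt1, 5 of 16 in all. Of all genes 11% passed there. Prlr and Elf5 are also among the 16 luminal markers.

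Among the other milk proteins, 11 of 16 could be tested. Under saline, where 7.77% of all genes passed, 5 were higher and 1 lower in female than in male knockouts. Ltf, the iron-binding lactoferrin, averaged 14.4 ± 11.1 FPKM in females and 0.04 ± 0.01 FPKM in males, and Lcn2, lipocalin 2, averaged 53 ± 13.9 FPKM in females and 2.94 ± 2.7 FPKM in males. Muc1, a mucin of the apical membrane, averaged 2.86 ± 0.338 FPKM in females and 0.62 ± 0.0608 FPKM in males. The folate receptor gene Folr1 and the mucin gene Muc15 were the other 2 that were higher, and Trf was lower, with a difference of -0.82 ± 0.21. Without Female KO NaCl replicate 2, Muc15 (limma adjusted p = 0.0714) and Trf (limma adjusted p = 0.0699) no longer passed and Glycam1 did (limma adjusted p = 0.0476). Under CL, where 11% of all genes passed, 6 were higher and 0 lower. Among them was Glycam1, with 414 ± 325 FPKM in 3 females and 11.9 ± 14.9 FPKM in 4 males.

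In milk fat and lactose synthesis, 10 of 13 genes could be tested. Of these, 2 passed under saline and 1 under CL, where 7.77% and 11% of all genes passed. Btn1a1, butyrophilin of the milk fat globule membrane, was higher in female knockouts under saline, with 3.62 ± 1.97 FPKM in females and 0.00333 ± 0.00577 FPKM in males, and under CL, by 1.89 ± 0.30. Cidea, a lipid droplet protein of both milk and thermogenic fat, was lower in saline female knockouts, at 21.6 ± 11.5 FPKM, against 113 ± 42.4 FPKM in males. Of 7 further whey acidic protein family genes, Wfdc2 differed most, with 125 ± 65.4 FPKM in saline female knockouts and 0.0333 ± 0.0577 FPKM in saline males, a difference of 6.89 ± 0.43. Slpi, a leukocyte protease inhibitor, was also higher in females under saline, though not without Female KO NaCl replicate 2 (limma adjusted p = 0.0666), and Wfdc17 was higher under CL.

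No tested member passed for CL against saline in knockout females, by limma's adjusted p or at an unadjusted p under 0.05. Csn3 differed by -0.91 ± 0.65 (limma adjusted p = 0.47) and Wfdc18 by -0.43 ± 0.56 (limma adjusted p = 0.74), from the values given above for 3 CL and 3 saline mice. All 3 CL mice had less Csn3 than all 3 saline mice, while Wfdc18 overlapped. How many of all genes separate in this way was not counted. In addition, 1 saline column is of the second table, while the CL columns are all of the first. Of all genes, 7.42% passed in this comparison. The luminal markers passed in 0 of 16 cases, 1 of them at an unadjusted p under 0.05, with a median difference of 0.02. Of the milk fat and lactose list, Cidea, Thrsp and Fasn, genes of lipid droplets and fat synthesis that adipocytes also use, were higher in CL mice, 3 of 10 tested. Of the prolactin list, Stat5b stood at 12.46, 13.51 and 13.67 FPKM in CL mice, against 17.2, 32.88 and 16.1 FPKM in saline mice, a difference of -0.72 ± 0.19 (limma adjusted p = 0.0218), and Stat5a passed in the other direction at 0.66 ± 0.20. The highest Stat5b was that of Female KO NaCl replicate 2, the mouse with 57590 FPKM of muscle markers, and all 10 muscle markers had an unadjusted p under 0.05 in this comparison, with a median of -5.25. The adipocyte genes Fabp4 and Lipe were higher in CL mice, 2 of 6. Without that mouse Cidea passed (3.22 ± 0.45, limma adjusted p = 0.000447), while Stat5b (limma adjusted p = 0.226), Stat5a (0.411), Thrsp (0.0541), Fasn (0.145), Fabp4 (0.218) and Lipe (0.374) did not. Whether the response to CL differed between the sexes was tested as an interaction in knockouts, which gave -1.22 ± 0.85 for Csn3 (limma adjusted p = 0.66) and -0.37 ± 0.72 for Wfdc18 (limma adjusted p = 0.90). This interaction called 4 of all genes (0.0304%).

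In males 0 of 5 tested members passed limma's test in any comparison, and 0 had an unadjusted p under 0.05, at levels near 0. The share of all genes that passed was 11.3% for CL in WT males, 7.25% for CL in KO males, 7.34% for KO against WT under saline, 1.94% for KO against WT under CL and 0.0531% for the interaction of genotype and treatment. Csn3 differed most between male knockouts and wild types under CL, by 0.35 ± 0.53 (limma adjusted p = 0.83), with 0, 0.59, 3.07 and 0 FPKM in KO mice and 0, 0, 0.47 and 0.66 FPKM in WT mice. Lalba, at 0.07, 0.15, 0.08 and 0.32 FPKM in these KO mice and 0.41, 0.12, 0.22 and 0.22 FPKM in the WT mice, overlapped likewise. At such levels a difference between males would not be detectable with these values.

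Among genes outside the members, Muc1 followed their mean log2 level most closely over the 29 columns, with a Pearson r of 0.935, and 0.872 without the second-table column of Female WT NaCl replicate 3. Folr1 (r = 0.902, and 0.733 without that column), Wfdc3 (0.893, and 0.496 without) and Btn1a1 (0.877, and 0.756 without) came next. Hhipl2, Atp2c2, Gjb2, Muc20, Cpsf4l and Vdr completed the first 10, with r from 0.826 to 0.873. The columns share animals, sex and 1 extreme column, so these values describe likeness in these libraries. Atp2c2, a calcium pump of the secretory pathway, stood at 10 FPKM in that column, at most 2.43 FPKM in the other females and at most 0.04 FPKM in males. Gjb2, connexin 26, stood at 4.89 FPKM there and at most 1.44 FPKM in the other females.

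The mix of milk protein RNA also differed between columns. In the second-table column of Female WT NaCl replicate 3, Wap made up 36.6% of the summed FPKM of the 7 genes, Csn2 25.2%, Csn1s2a 17.8%, Csn1s1 10.6%, Csn3 7.5%, Lalba 1.42% and Wfdc18 0.92%. In the first-table column of that name Wfdc18 made up 79.3% and Csn3 20.2%. In Female WT CL replicate 1, Csn3 made up 69.5% and Wfdc18 28.4%, and in Female KO NaCl replicate 1 they made up 48.3% and 48.8%. Female WT NaCl replicate 1, with a sum of 592.72 FPKM over the 7 genes, held 28.1% Wap, 21.5% Csn3, 19.2% Csn2 and 13.8% Csn1s2a. Wap, Csn2 and Csn1s2a thus made up most of the sum in both second-table columns of WT saline females, and Csn3 and Wfdc18 in the other 3 columns.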

How the data were processed

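RNA of mouse subcutaneous white fat was sequenced in 8 groups. The authors deposited FPKM values in 2 tables, and per the submitters' processing notes reads were aligned with HISAT2 2.0.4 to GRCm38/mm10. The sources used here do not name the program behind the FPKM. The tables list 18658 and 17677 genes, 17536 of them shared, and 25 symbols stored as dates were resolved by gene identifier. Of 29 sample records, 2 have no column here and 2 names occur in both tables. Columns of a repeated name were averaged on the log2 scale as 1 mouse.

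Groups came from the sample titles, since the treatment labels of CL samples count up over several texts. Values were tested as log2(FPKM + 1), a pseudocount that understates changes of low genes, in 1 limma fit (3.58.1, R 4.3.3, trend=TRUE, two-sided) with 8 group means and the table as a covariate, at 18 residual and 2.92 prior degrees of freedom. Groups with second-table columns rest on that covariate. The fit was tested on simulated data of independent normal noise, with no floor for low values, no table effect and no mice deviating together. That run therefore does not cover these features of the data. Same-numbered mice deviated together (correlations over 0.1 in every pair) only between the sexes of knockouts, 0.382 to 0.775 under saline and 0.205 to 0.612 under CL. This is a hint from the data, and no label says what a number marks. All 7 members are described, and the likeness list takes the 10 genes with the highest correlation. Members and gene lists were chosen with earlier results of these data known. FPKM gives no counts, so read depth is unknown.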

Additional observations from a re-analysis of the deposited data

Results flagged for a closer look

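In groups of 4 mice, 18 sets of member values could be examined for a mouse far from the rest of its group, and 5 held one. In 3 of these 5 the other mice were all at 0, so any value above 0 stands apart and no chance rate applies. Of the other 15 sets 2 held one, Csn1s1 and Csn2 in Female WT CL. Wild-type female values chose the members, and the other mice of these sets lay near 0. No chance rate is therefore given for these 2 either, and they are a description. Female WT CL replicate 1 stood apart in 3 of the 5, with 2.18 FPKM of Csn1s1 (at most 0.11 in the other 3 mice), 2.09 FPKM of Csn2 (at most 0.19) and 0.14 FPKM of Wap (0 in the others). This mouse also had the highest luminal marker sum of all female columns, 1829 FPKM, and its part in these values was not tested. Among males, Csn3 stood at 0.73 FPKM in Male WT NaCl replicate 3 and was listed at 0 in the other 3 mice of that group. Wfdc18 stood at 0.43 FPKM in Male WT CL replicate 4 and was listed at 0 in the other 3.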

How the results depend on the processing

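Values below are the median fitted log2 difference over the 7 members. For CL in WT females it was -5.58, and -6.69 with a pseudocount of 0.1, -1.82 with the first-table and -8.47 with the second-table column of replicate 3, -3.99 with those columns as separate mice, 0.05 in the first table alone and -6.87 with only the groups compared. Leaving out a replicate gave -5.98 to -4.91. For KO against WT saline females it was -5.80, and in the same order -7.23, -2.48, -8.74, -5.08 and -0.11, with -6.23 to -5.20 by leave-one-out. For saline WT females against males it was 6.65, and 7.89, 2.43, 9.32, 4.85, 0.28 and, with only the groups compared, 7.30, with 6.12 to 6.82 by leave-one-out. The table that holds a column cannot be told apart from these differences.

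Csn3 and Wfdc18 passed in both sex comparisons of knockouts under every alternative run, with the highest adjusted p at 0.0035 for Csn3 and 0.0021 for Wfdc18. Counts of members called kept their value of 0 or 2, except 3 under saline with no filter. With the replicate block, Csn3 differed by 5.66 under saline and 4.36 under CL, and the block changed no call of a member. The sex by treatment interaction of Wfdc18 ran from -0.78 to 0.27 by leave-one-out and turned positive without Female KO NaCl replicate 1.

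Counts over all genes moved more. Against the counts as reported, other settings gave 1 to 1035 calls for CL in KO females (978), 1263 to 2637 for CL in WT males (1485), 0 to 1580 for CL in KO males (955), 202 to 1502 for KO against WT saline males (967), 180 to 1221 for females against males in saline knockouts (1024), 1 to 10 for the male interaction (7) and 0 to 10 for the knockout interaction (4). Leaving out a mouse gave 359 to 1684, 901 to 1251, 213 to 1087, 348 to 797, 324 to 1772, 1 to 13 and 0 to 494 in that order, 658 to 1249 for CL knockouts by sex (1451) and 121 to 310 for KO against WT CL males (256). Both counts near 0 for CL came from the fits with only the groups compared.

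Under quantile normalization the median difference of all genes between female and male knockouts was -0.06 under saline, against 0.10 as reported, and -0.04 under CL, against 0.09. Then 34.5% of calls were higher in females under saline (57.5% as reported) and 47.8% under CL (76.5%). Calls that were higher made up 80.8% for CL in KO females (69.2%), 41.1% for CL in KO males (29.0%), 57.4% for KO against WT saline males (43.3%) and 63.8% for KO against WT CL males (43.4%).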
